A study of Rattus norvegicus with 32 samples.

Results

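Snurf, Snrpn, Ndn, Magel2, Ube3a, Peg3, Usp29 and Peg10 are imprinted genes, and their levels were compared across early-life iron and choline groups in the adult rat hippocampus. Rows were taken from both count tables by symbol, which found 7 of the 8 genes, each with 1 row among the 32883 rows of a table. Peg10 was not analysed here. Snurf and Usp29 were chosen by their fold changes in earlier results of the same data, Snurf in male FIDch against IS and Usp29 in a contrast that is not recorded, and the others as their imprinted neighbours. The diet differences of Snurf in males, those of Usp29 in both sexes and those of all 7 genes in male FIDch against IS and male FIDch against FID are therefore a description. So is the male interaction of iron and choline of every gene, which is built on the same libraries. Where calls are counted, these values are counted as they fell in the fit of all genes and nothing is supported with them.

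An imprinted gene is transcribed from the copy of only one parent, and DNA methylation set in the germ line of the parents tells their copies apart. Snurf and Snrpn are read from one paternally expressed transcription unit of the Prader-Willi and Angelman region, which also holds the paternally expressed Ndn and Magel2 and the maternally expressed (in neurons) Ube3a. Peg3 and Usp29 belong to a separate imprinted domain and are both expressed from the paternal copy. Loss of the paternal or maternal contribution of the former region causes Prader-Willi or Angelman syndrome, and brain is a main site of expression of most of these genes.

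Hippocampal RNA of 32 Sprague-Dawley rats was sequenced at P65, and each of the 8 combinations of sex and diet held 4 rats. IS rats came from dams on an iron-sufficient diet and FID rats (ID in the labels) from dams on an iron-deficient diet from early gestation to the end of the first postnatal week, followed by iron-sufficient diet, and ISch and FIDch are the same groups with extra choline in the maternal diet in mid to late gestation. All groups were on iron-sufficient diet when studied. The paper took a single male per litter for each experiment, but its RNA data came from a previous study. The litters of the rats sequenced here are not given in the sources used here. Males formed sequencing batch I and females batch II, so that sex and batch cannot be told apart.

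Totals were 3515806 to 9517503 counts in the male and 18439999 to 26616318 in the female libraries, and the male FIDch replicate 2 had the lowest total. Markers of excitatory neurons summed to 5045 to 6347 CPM (the count of a gene scaled by the total of its library) and markers of hippocampal fields to 546 to 909 CPM over all libraries. Markers of choroid plexus summed to 413 CPM in male FID replicate 4 and to at most 19.7 CPM in any other library. Those of hypothalamus summed to 123 CPM in female IS replicate 3 and to at most 4.26 CPM elsewhere. Of the hypothalamus markers tested against female IS, Pomc alone met the fold and p limits defined below. Its log2 fold change was -4.63 in FID, -5.01 in FIDch and -4.98 in ISch, beside -0.02, -0.47 and -0.40 for Hcrt. The high sum is therefore not shown for the hypothalamus list as a whole. Female FIDch replicate 4 stood apart from the other FIDch females, with a chi-square per gene of 22.4 to 25.2 against each of them. Any other pair of replicates had at most 14.3. FIDch replicate 4 held the lowest Ube3a, Usp29 and Peg3 of its group. Female ISch replicate 1 had 11 to 14.3 against the other ISch females, which had 5.18 to 6.68 among themselves. The label number of each of these libraries lies outside the series of its group. What the series stand for is not given, and their part in the female choline comparisons was not tested. Since whole hippocampus was sequenced, fewer cells of a type and less RNA per cell cannot be told apart.

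The letters before the RefSeq start sites of 4 of these genes are shown as background, since transcription factors bind promoter sequence. No expression result rests on them, and methylation was not measured. Whether these starts, that of Usp29 included, are the ones used in hippocampus was not tested. They are the 250 bases before each gene's start in RefSeq on GRCr8, 5′ to 3′, while the counts were made on Rnor_6.0. Capitals mark matches to the letters GCATGCG (the core bound by NRF1) or AAGATGGC (a core bound by YY1), both searched on both strands.
Snurf (chr1:120339154-120339403, minus strand): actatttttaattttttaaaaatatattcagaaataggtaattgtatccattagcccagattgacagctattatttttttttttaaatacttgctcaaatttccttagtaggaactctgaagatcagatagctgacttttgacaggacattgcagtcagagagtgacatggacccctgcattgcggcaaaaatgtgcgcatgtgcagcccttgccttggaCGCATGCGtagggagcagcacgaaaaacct
Ube3a (chr1:119205898-119206147, plus strand): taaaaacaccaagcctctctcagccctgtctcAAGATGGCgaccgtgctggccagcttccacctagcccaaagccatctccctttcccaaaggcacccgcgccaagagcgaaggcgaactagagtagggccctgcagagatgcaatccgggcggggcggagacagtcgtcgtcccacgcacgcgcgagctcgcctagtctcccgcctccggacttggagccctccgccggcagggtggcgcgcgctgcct
Peg3 (chr1:76130744-76130993, plus strand): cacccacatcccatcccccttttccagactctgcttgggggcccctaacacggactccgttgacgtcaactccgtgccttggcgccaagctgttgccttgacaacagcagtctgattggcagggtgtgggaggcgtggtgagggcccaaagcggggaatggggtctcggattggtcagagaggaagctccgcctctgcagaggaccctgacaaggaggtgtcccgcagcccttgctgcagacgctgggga
Usp29 (chr1:75959897-75960146, minus strand): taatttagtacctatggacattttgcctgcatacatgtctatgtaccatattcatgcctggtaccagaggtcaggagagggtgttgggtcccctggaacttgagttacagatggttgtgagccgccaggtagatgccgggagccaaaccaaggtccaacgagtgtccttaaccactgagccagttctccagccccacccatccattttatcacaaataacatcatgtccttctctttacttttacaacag

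The GCATGCG letters stood before the starts of Snurf and Ndn, in both as a palindrome in which the matches on the 2 strands overlap, and they were found before 2.93% of 33469 RefSeq starts. The AAGATGGC letters stood before Ube3a alone among the 8 genes and before 1.63% of all starts. CpG dinucleotides numbered 23 before Ube3a, 18 before Peg10, 11 before Peg3, 10 before Ndn, 9 before Magel2, 7 before Snrpn, 5 before Snurf and 3 before Usp29, with a median of 5 over all starts. The start of Snrpn lay 234 bases downstream of that of Snurf on the same strand.

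**Figure D1:**
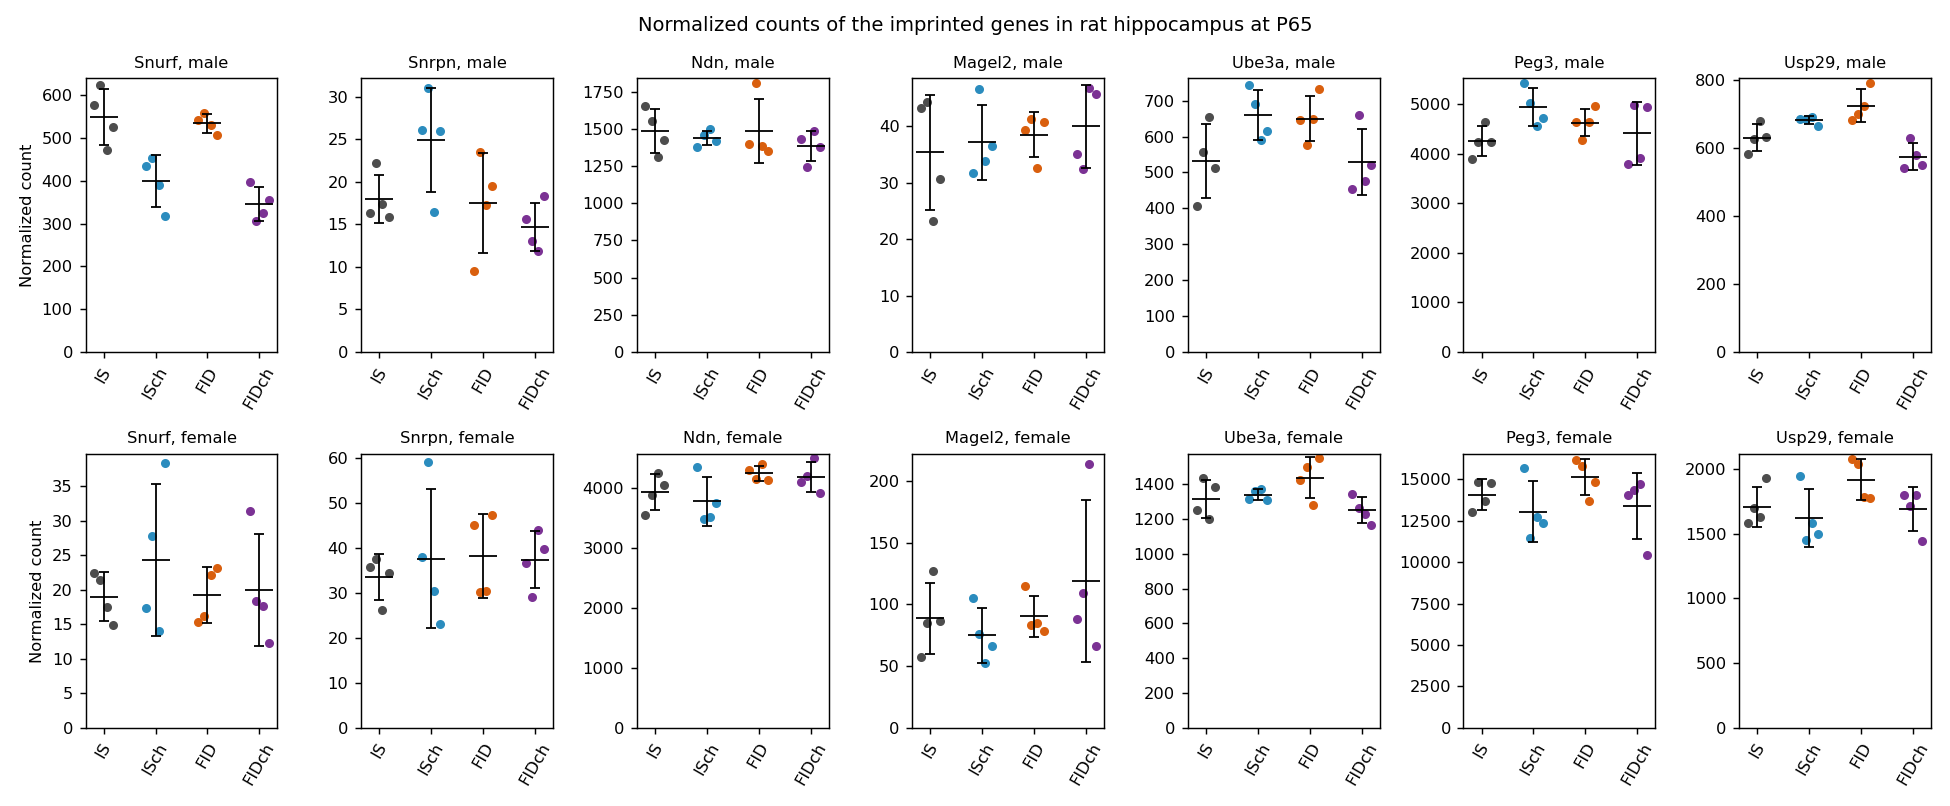
Normalized counts (y axis, from 0, a separate scale in each panel) of the 7 genes in the 4 diet groups (x axis), males above and females below. Points are single rats, and the bar and whiskers are the mean and SD of 4. In male Snurf the points of ISch and FIDch, 305 to 454, lie under those of IS and FID, 472 to 623, and in female Snurf all groups overlap.

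Snurf encodes a small protein from the upstream part of the bicistronic Snurf-Snrpn transcript. In males it was lower in both groups with choline than in both groups without it. Normalized counts (counts scaled by TMM to the mean library of the same sex) were 578, 623, 472 and 525 in IS and 541, 558, 530 and 506 in FID. They were 435, 454, 390 and 317 in ISch and 396, 305, 325 and 354 in FIDch. No male with choline reached the lowest male without it, while IS and FID overlapped, as did ISch and FIDch.

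Group means in male Snurf were 549 ± 65.3 in IS, 534 ± 21.6 in FID, 399 ± 61.1 in ISch and 345 ± 39.9 in FIDch (SD, n = 4). The log2 fold change was -0.66 ± 0.10 (SE) in FIDch against IS, -0.47 ± 0.11 in ISch against IS, -0.62 ± 0.08 in FIDch against FID, -0.19 ± 0.11 in FIDch against ISch and -0.05 ± 0.09 in FID against IS. Among all genes tested in male FIDch against IS, 6.12% met the study's criterion of an absolute log2 fold change over 0.2 with an unadjusted p under 0.05, and 0.131% had an adjusted p under 0.05. Snurf met both, as the choice fixed. The value without the 3 male libraries whose labels have another form (ISch replicates 1 and 2 and FIDch replicate 2) was -0.62 in FIDch against IS, -0.65 in ISch against IS and -0.58 in FIDch against FID, but it turned to 0.03 in FIDch against ISch.

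In females Snurf was read from 12 to 36 counts per library, although these libraries were the larger ones, and no diet difference was detectable at such low counts. Normalized counts were 22.4, 21.4, 17.5 and 14.9 in IS, 15.3, 16.2, 22.1 and 23.2 in FID, 17.3, 27.7, 14 and 38.3 in ISch and 31.4, 18.3, 17.6 and 12.2 in FIDch. All 4 groups overlapped. The log2 fold change in females was 0.08 ± 0.31 (SE) in FIDch against IS, 0.35 ± 0.33 in ISch against IS, 0.06 ± 0.31 in FIDch against FID, -0.28 ± 0.38 in FIDch against ISch and 0.02 ± 0.26 in FID against IS, with edgeR adjusted p from 0.660 to 0.992. The difference between the sexes in these fold changes was 0.75 ± 0.28 (female minus male) for FIDch against IS and 0.82 ± 0.33 for ISch against IS, given without a test because the male values chose the gene.

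The share of the library that Snurf took differed far more between the batches than between diets. Snurf held 59.5 CPM of all male and 0.929 CPM of all female counts, a ratio of 64.0. Snrpn held 2.48 and 1.66 CPM, and the sum of both rows 62.0 CPM in males and 2.59 CPM in females. For the other 5 genes the ratio of male to female CPM lay between 0.929 and 1.27. Apeg3, an RNA antisense to Peg3, showed the same kind of split, with 64.7 to 94.8 CPM in the male libraries and 0 counts in each of the 16 female libraries, where a count of 0 allows up to 3 counts.

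Such a split was rare among all genes. Of 10083 genes with at least 10 CPM in either sex, 124 (1.23%) were at least 16-fold higher in males and 12 (0.119%) at least 16-fold higher in females. Of those 124, 61 had a RefSeq entry and 42 of these (68.9%) overlapped another gene, beside 45.1% of the 9363 with an entry among all 10083. Whether sex, batch or the counting of overlapping genes made the split was not tested. The sources used here give neither the strand setting nor the treatment of overlapping genes, so reads of Snurf and Snrpn, and of Peg3 and Apeg3, cannot be told apart. Levels in the diet groups were therefore compared only within a sex, and the ratios between the sexes are a description. Only diet differences formed within a sex were set against each other between the sexes. In those, sex, batch and a difference in counting between the tables cannot be told apart.

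**Figure D2:**
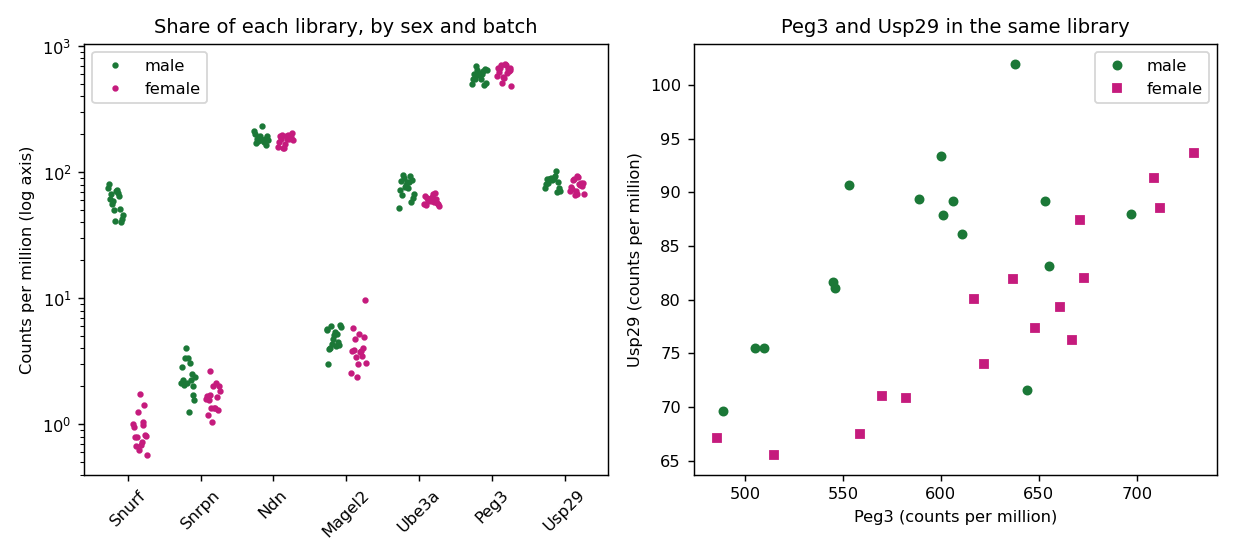
Left, CPM (log axis) of the 7 genes in each of the 16 male and 16 female libraries, where Snurf alone separates the sexes by more than 10-fold. Right, Usp29 against Peg3 in CPM, 1 point per library, where the female points follow a line more closely than the male points.

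Snrpn, whose product SmN is a core protein of spliceosomal particles in neurons, was read from 6 to 34 counts per male library. Male normalized counts were 16.3, 22.2, 17.4 and 15.9 in IS, 9.57, 23.5, 17.3 and 19.5 in FID, 26.1, 31.1, 16.5 and 26.0 in ISch and 15.6, 13, 11.9 and 18.3 in FIDch. It fell in FIDch against ISch by 0.76 ± 0.26 (SE) on the log2 scale (edgeR adjusted p = 0.233), with 1 ISch library inside the FIDch range. Without the 3 libraries of another label form the value was -0.51 and no longer met the criterion. In the other male comparisons the log2 fold change was 0.47 ± 0.24 in ISch against IS, -0.28 ± 0.25 in FIDch against IS, -0.27 ± 0.29 in FIDch against FID and -0.02 ± 0.28 in FID against IS, none at the criterion.

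Female Snrpn had group means from 33.5 in IS to 38.2 in FID, and its log2 fold change lay between -0.05 and 0.20 in the 5 comparisons with SE of 0.21 to 0.29. When the rows of Snurf and Snrpn were summed, the male values followed those of Snurf, which supplies most of the reads. The sum had a log2 fold change of -0.65 in FIDch against IS, -0.43 in ISch against IS and -0.61 in FIDch against FID, and in females 0.12, 0.23 and -0.01.

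Ube3a, the E3 ubiquitin ligase whose loss causes Angelman syndrome, had its highest male means in ISch and FID and its lowest in IS and FIDch. Male normalized counts were 406, 557, 654 and 512 in IS, 645, 577, 648 and 732 in FID, 745, 690, 590 and 616 in ISch and 455, 661, 477 and 521 in FIDch. Neighbouring groups in the order of the means overlapped throughout. Ube3a rose by 0.28 ± 0.13 (SE) on the log2 scale in FID against IS (edgeR adjusted p = 0.786) and by 0.31 ± 0.13 in ISch against IS (edgeR adjusted p = 0.455). It fell by 0.35 ± 0.10 in FIDch against ISch (edgeR adjusted p = 0.196), all at the criterion but not after adjustment over all genes. In FIDch against FID the log2 fold change was -0.32 ± 0.11, as a description.

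The rise in FID against IS lost the criterion without IS replicate 1 (0.17), 2 (0.31) or 4 (0.27) and without FID replicate 1 (0.29), 3 (0.29) or 4 (0.23), the last being the library with choroid plexus markers. The rise in ISch against IS lost it without IS replicate 1 (0.19) or 4 (0.29) and without ISch replicate 1 (0.24) or 2 (0.29). The fall in FIDch against ISch kept the criterion with each of the 8 libraries left out, from -0.45 to -0.27, and the value in FIDch against FID ran from -0.43 to -0.25.

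The choline difference in Ube3a was lower in formerly iron-deficient than in iron-sufficient rats of both sexes. In females it had an unadjusted p under 0.05 and did not pass adjustment. The iron by choline interaction, the log2 difference FIDch minus FID less the difference ISch minus IS, was -0.62 ± 0.18 (SE) in males, as a description. It was -0.22 ± 0.09 in females (edgeR adjusted p = 0.490), where 9.18% of all genes had an unadjusted p under 0.05. Male values ran from -0.74 to -0.51 with each library left out. The female unadjusted p was over 0.05 without IS replicate 1 (-0.19) or 3 (-0.18), FID replicate 2 (-0.20) or 4 (-0.18), or FIDch replicate 4 (-0.19).

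Female Ube3a varied less than male Ube3a. Normalized counts were 1250, 1434, 1203 and 1383 in IS, 1423, 1497, 1280 and 1550 in FID, 1314, 1360, 1371 and 1311 in ISch and 1346, 1266, 1228 and 1168 in FIDch. It fell in FIDch against FID by 0.20 ± 0.07 (SE) on the log2 scale (edgeR adjusted p = 0.155), a value that lies at the limit of the fold criterion and dropped below it under 7 of the other settings tried. In FIDch against FID the log2 fold change without FID replicate 2 (-0.18) or 4 (-0.16) or without FIDch replicate 3 (-0.19) or 4 (-0.17) also missed the criterion.

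**Figure D3:**
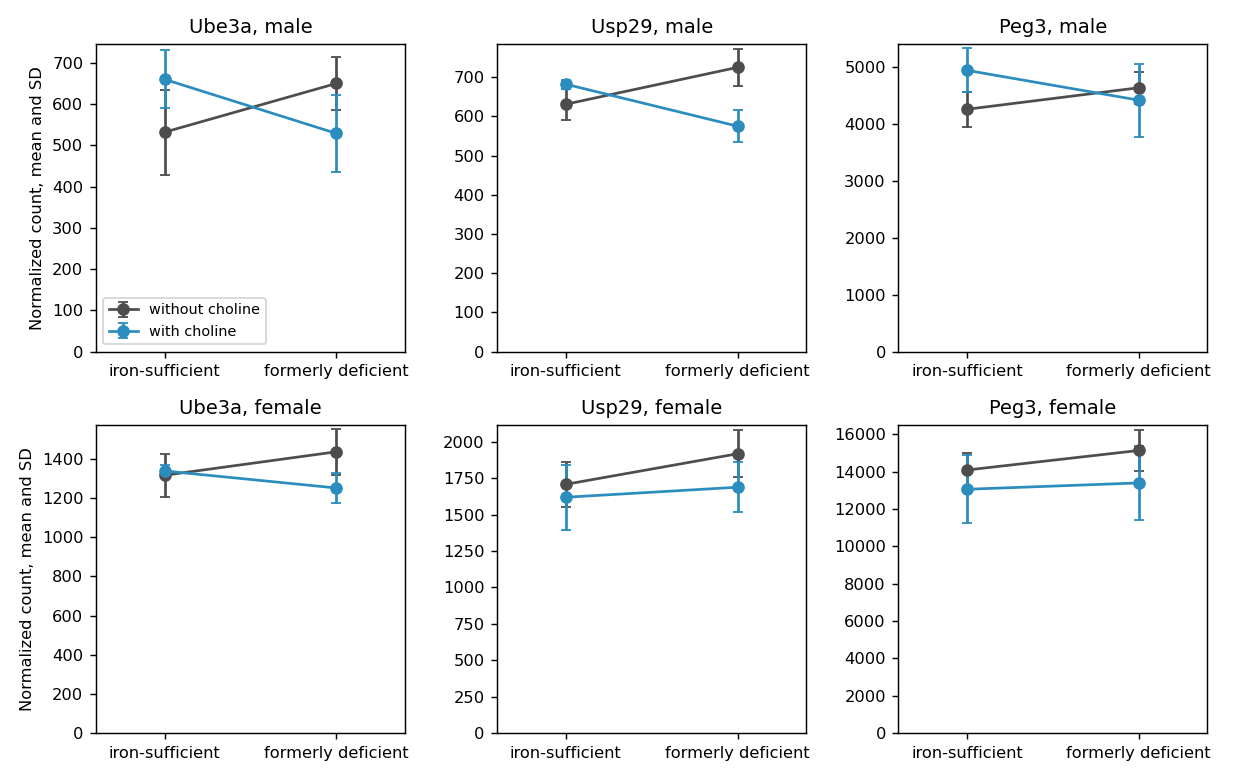
Mean and SD (4 rats) of normalized counts of Ube3a, Usp29 and Peg3 (y axis, from 0) against iron history (x axis), with and without choline, males above and females below. The lines with and without choline cross in all 3 male panels, for Ube3a from 532 to 650 without and from 660 to 529 with choline, and in the female Ube3a panel, and they do not cross for Usp29 and Peg3 in females.

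Peg3 encodes a zinc finger protein and had the highest counts of the 7 rows. Male normalized counts were 3901, 4229, 4646 and 4230 in IS, 4648, 4267, 4642 and 4954 in FID, 5434, 5017, 4557 and 4723 in ISch and 3801, 4974, 3914 and 4950 in FIDch. The FIDch males fell into 2 low and 2 high values that spanned most of the range of the other groups. Peg3 rose in male ISch against IS by 0.21 ± 0.07 (SE) on the log2 scale (edgeR adjusted p = 0.381), which missed the criterion without IS replicate 1 (0.17) or ISch replicate 1 (0.16).

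In females Peg3 had means of 14085 ± 908 in IS, 15132 ± 1102 in FID, 13052 ± 1825 in ISch and 13392 ± 1990 in FIDch (SD, n = 4), and it met the criterion in no comparison. The ISch against IS difference was lower in females than in males by 0.32 ± 0.12 (SE) on the log2 scale (edgeR adjusted p = 0.199), where 15.5% of all genes had an unadjusted p under 0.05. The male iron by choline interaction of Peg3 was -0.28 ± 0.12, as a description, and it ran from -0.34 to -0.21 with each library left out.

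Usp29, a ubiquitin-specific protease gene, had its lowest male mean in FIDch and its highest in FID. Male normalized counts were 583, 628, 680 and 633 in IS, 683, 700, 723 and 792 in FID, 686, 685, 691 and 665 in ISch and 541, 631, 579 and 550 in FIDch. Every FIDch male was below every FID and every ISch male, while FIDch and IS overlapped. The log2 fold change was -0.35 ± 0.07 (SE) in FIDch against FID, -0.25 ± 0.06 in FIDch against ISch, -0.13 ± 0.08 in FIDch against IS, 0.11 ± 0.06 in ISch against IS and 0.19 ± 0.07 in FID against IS, the last just short of the fold limit. Without male FID replicate 4 it was -0.30 in FIDch against FID and 0.15 in FID against IS.

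Female Usp29 was 1582, 1699, 1627 and 1929 in IS, 2077, 2039, 1780 and 1778 in FID, 1948, 1453, 1584 and 1495 in ISch and 1802, 1715, 1797 and 1440 in FIDch. All pairs of neighbouring groups overlapped, and FID again had the highest mean. ISch replicate 1 and FIDch replicates 1, 2 and 3, which have the higher label numbers, ran from 1715 to 1948. The other females with choline ran from 1440 to 1584, and the part of the label series in this split was not tested. The log2 fold change in females was 0.16 ± 0.07 (SE) in FID against IS, -0.18 ± 0.08 in FIDch against FID, -0.08 ± 0.09 in ISch against IS, 0.06 ± 0.10 in FIDch against ISch and -0.02 ± 0.08 in FIDch against IS. The interaction was -0.44 ± 0.09 in males and -0.10 ± 0.13 in females. Without female FIDch replicate 4 the female value in FIDch against FID was -0.12 for Usp29 and moved from -0.18 to -0.07 for Peg3.

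Ndn and Magel2 encode proteins of the MAGE family, of which Magel2 works with a ubiquitin ligase in endosomal protein recycling. Neither met the criterion in any of the 10 comparisons. Male Ndn means ran from 1385 ± 103 in FIDch to 1488 ± 148 in IS and 1488 ± 217 in FID, and female means from 3771 ± 403 in ISch to 4240 ± 128 in FID (SD, n = 4). The log2 fold changes of Ndn lay between -0.11 and 0.15. Magel2 was read from 15 to 55 counts per male and 45 to 219 per female library, with male means of 35.4 in IS to 40.0 in FIDch and female means of 75.0 in ISch to 119 in FIDch. Female FIDch replicate 3 held 214 normalized counts of Magel2 against 66.1 to 109 in the other FIDch females. Female IS replicate 3, the library with the high sum of hypothalamus markers, held 127 against 57.0 to 86.5. The part of those markers in the levels of Magel2 was not tested.

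When the 4 groups of a sex were put in the order of their means, neighbouring groups overlapped in each of the 7 genes and both sexes, with the exception of ISch and FID in male Snurf. The ratio of the highest to the lowest mean was 1.07 for Ndn, 1.13 for Magel2, 1.16 for Peg3, 1.25 for Ube3a, 1.26 for Usp29, 1.59 for Snurf and 1.70 for Snrpn in males. In females it lay between 1.12 for Ndn and 1.28 for Snurf, with Magel2 at 1.59.

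**Figure D4:**
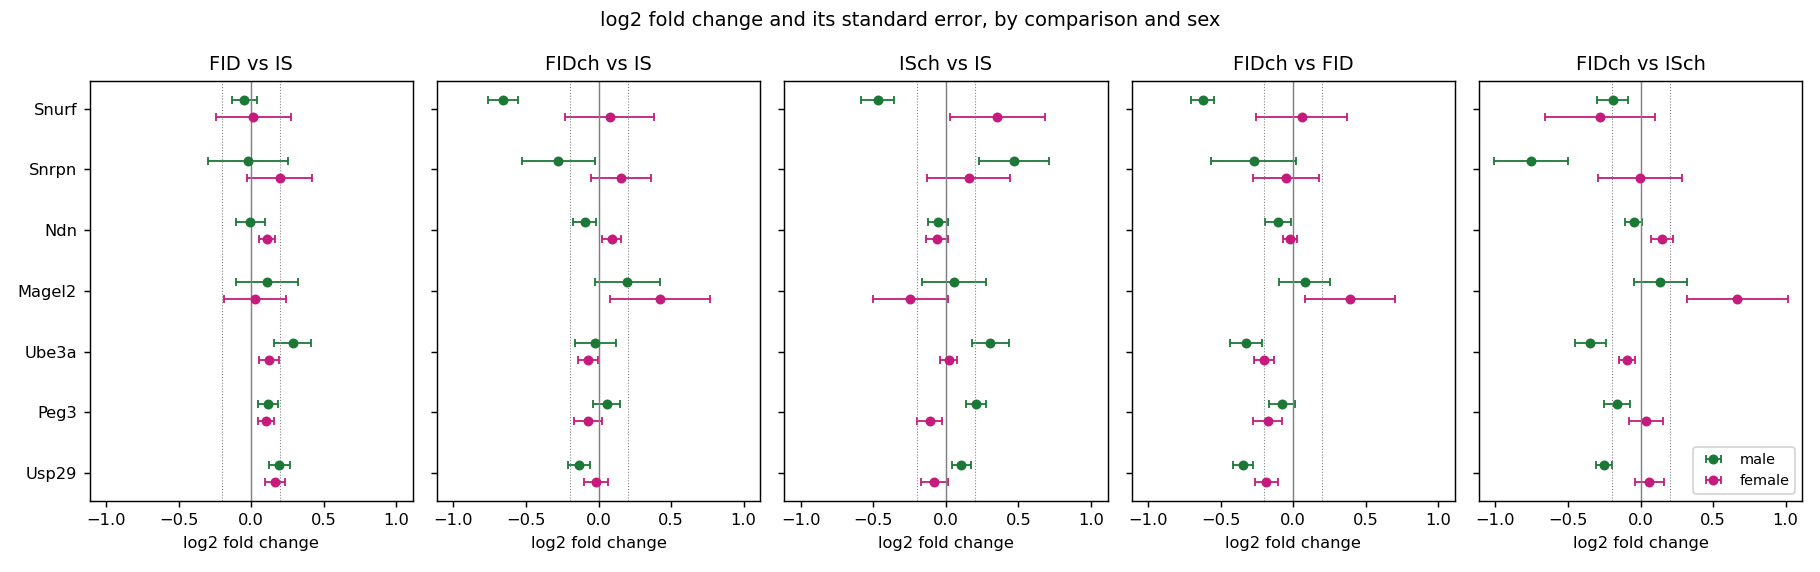
log2 fold change (x axis) of the 7 genes (y axis) in the 5 comparisons, males and females, with whiskers of 1 standard error and dotted lines at the fold limit of 0.2. Male Snurf lies between -0.66 and -0.47 in the 3 comparisons that set a choline group against a group without choline. The widest whisker of a comparison belongs to female Snurf, female Magel2 or male Snrpn.

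Counted over the 7 genes, the criterion was met by 1 gene (Ube3a, higher) in male FID against IS, where 4.62% of all genes met it, and by 3 genes in male ISch against IS (Peg3 and Ube3a higher, Snurf lower), where 8.06% did. It was met by 3 genes in male FIDch against FID (Snurf, Ube3a and Usp29, all lower) beside 13% of all genes, and by 3 in male FIDch against ISch (Snrpn, Ube3a and Usp29, all lower) beside 8.12%. Snurf and Usp29 had an adjusted p under 0.05 in male FIDch against FID, as did 1.28% of all genes, and nothing is read from counts that hold these 2 genes. The comparisons share groups, so their counts are not independent of each other.

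In females the criterion was met by Ube3a in FIDch against FID, where 12.7% of all genes met it. No gene of the set met it in FID against IS (6.47% of all genes), FIDch against IS (8.98%), ISch against IS (10.3%) or FIDch against ISch (4.57%). With no limit on the fold, edgeR gave 1 gene (Usp29) an unadjusted p under 0.05 in FID against IS and 0 genes in the other 3, and DESeq2 also placed 0 genes at the criterion in these 4. The difference between the sexes had an unadjusted p under 0.05 for 0 of the 7 genes in FID against IS (8.34% of all genes) by both edgeR and DESeq2, and, Snurf left aside as untested, for 0 in FIDch against IS (13.9%) by both tools and for Peg3 in ISch against IS.

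The members of a pair were not equally correlated in the 2 batches. Across the 16 female libraries Peg3 and Usp29 had Pearson's r = 0.923 and Spearman's rho = 0.885 (permutation p = 1e-05, the smallest that can be given, and 2e-05, adjusted 6e-05 and 0.00012 over 6 relations). The r was 0.913 after the diet means were subtracted and 0.919 without the 2 libraries farthest from the median of Peg3, female FIDch replicate 4 among them. Subtraction of diet means does not remove a split within a group, such as that of Usp29 by label series in the females with choline. Across the 16 male libraries r was 0.544 and rho 0.453 (permutation p = 0.030 and 0.080, adjusted 0.060 and 0.12). The male r was 0.304 without the 2 farthest libraries, but leaving these out also narrows the range of Peg3. After the diet means were subtracted, the male r was 0.563 and rho 0.468 (permutation p adjusted 0.036 and 0.085).

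Ndn and Magel2 had r = 0.786 and rho = 0.815 in females (permutation p = 0.00015 and 0.00028, adjusted 0.00045 and 0.00084), with r = 0.794 without the 2 farthest libraries. In males r was 0.482 and rho 0.497 (permutation p = 0.061 and 0.052, adjusted 0.091 and 0.10), and r rose to 0.602 after the diet means were subtracted. Snurf and Snrpn, which overlap, had r = 0.111 and rho = 0.0941 in males and r = -0.0632 and rho = -0.00882 in females (permutation p from 0.68 to 0.98, adjusted 0.82 to 0.98), with r = 0.162 and 0.377 without the 2 farthest libraries. After the diet means were subtracted, the male r was 0.281 and rho 0.488 (permutation p = 0.29 and 0.059, adjusted 0.35 and 0.085).

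Likeness to Snurf and Usp29 was measured for 13864 genes as the smaller of the 2 within-sex Pearson correlations over 16 male and 16 female libraries, which share the depth of each library. The 5 genes most like Usp29 were Ttc3 (0.870), Dgkb (0.837), Map9 (0.823), Tmx4 (0.782) and Mtmr9 (0.770). Peg3 stood at 0.544 and Ube3a at 0.487 by the same measure. The 5 most like Snurf were Shisa4 (0.629), Smim14 (0.595), Atg5 (0.578), Ushbp1 (0.572) and Ubqln1 (0.558), and each other gene of the set had a likeness of -0.0206 or lower with Snurf. Female Snurf had only 12 to 36 counts per library, so counting error weighs on its female correlations and on every likeness to it. In males alone r with Snurf was 0.467 for Ndn, 0.336 for Usp29, 0.111 for Snrpn, 0.0453 for Magel2, -0.0206 for Ube3a and -0.201 for Peg3.

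Genes of the Prader-Willi and Angelman region other than those of the set were also listed, 14 in number, of which 9 were tested in males and 11 in females. In male FIDch against FID 4 of 9 were lower and 1 higher at the criterion, where 13% of all genes met it in either direction, with a list median of -0.21 on the log2 scale beside 0.00 over all genes. Among the lower ones were the magnesium transporters Nipa2 (-0.38 ± 0.08, SE, edgeR adjusted p = 0.0472) and Nipa1 (-0.27 ± 0.08, adjusted p = 0.0974) and the GABA-A receptor subunit Gabra5 (-0.23 ± 0.06, adjusted p = 0.0706). The lists were chosen with earlier results of these libraries known. Their values and counts in male FIDch against FID, here and for the lists below, are therefore a description too, and nothing is supported with them. Atp10a (0.23), a phospholipid flippase gene named here after its values were seen, was the one that was higher. In female FIDch against FID 1 of 11 met the criterion, Gabrg3, which was lower, beside 12.7% of all genes. In the other comparisons 0 to 3 of the list did.

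Of 9 genes of the Peg3 region, 3 were tested in males and 2 in females. Apeg3 fell in male FIDch against FID by 0.25 ± 0.09 (SE) on the log2 scale (edgeR adjusted p = 0.191) and in FIDch against ISch by 0.24 ± 0.09 (adjusted p = 0.268), and Zfp28 rose in female FID against IS by 0.38 ± 0.11 (adjusted p = 0.234). No other of their comparisons met the criterion. Of 14 genes of the Peg10 region 6 were tested, and at most 3 met the criterion in a comparison, in male FIDch against FID (13% of all genes), where Ppp1r9a (-0.22), an actin-binding scaffold of synapses, and Casd1 (-0.22) were lower and Pdk4 (0.78) was higher.

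Among 48 imprinted genes elsewhere, 29 to 34 were tested and 0 to 5 met the criterion in a comparison. In male FIDch against FID 4 of 30 were lower and 0 higher by edgeR, a share near the 13% of all genes, namely Impact (-0.22), Copg2 (-0.22), Mest (-0.39) and Zrsr1 (-0.22), and the list median was -0.10 beside 0.00 over all genes. In female ISch against IS Gatm, which makes the precursor of creatine, fell by 0.29 ± 0.05 (SE) on the log2 scale (edgeR adjusted p = 0.0215).

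All 12 partners of Snrpn in the Sm core and related particles were tested, and 0 to 2 met the criterion in a comparison. Snrpc, a protein of the U1 particle, rose in females by 0.61 ± 0.10 (SE) on the log2 scale in ISch against IS, 0.69 ± 0.09 in FIDch against IS and 0.79 ± 0.08 in FIDch against FID (edgeR adjusted p = 0.0141, 0.00650 and 0.00074), while the list medians there were 0.02, 0.09 and 0.10. Of 15 factors that maintain imprints 4 met the criterion in male FIDch against FID, beside 13% of all genes, with the histone methyltransferase Ehmt2 higher (0.25) and Zfp445 (-0.23), Smchd1 (-0.22) and Cbx5 (-0.25) lower, and the list median was -0.01. Among the 12 genes of the Magel2 ligase and the WASH complex, Washc1 in male FIDch against FID (0.23) and Washc4 in female FIDch against FID (0.24) met it, and none did in the other 8 comparisons by edgeR.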

How the data were processed

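The authors deposited raw counts per gene without normalization, 1 table for each sex, made from paired-end TruSeq RNA v2 libraries (a kit that does not mark strand). The submitters' processing notes name FastQC, Trimmomatic, HISAT2, featureCounts (Subread) and Rnor_6.0, and the settings for strand and overlap are not given in the sources used here.

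Each pair of groups was fitted apart in edgeR 4.0.16 (R 4.3.3) with TMM, filterByExpr and the quasi-likelihood test, over all genes, with Benjamini-Hochberg adjustment. Calls followed the study's criterion. Interactions and differences between the sexes were fitted in models of 16 libraries. Normalized counts were counts divided by the TMM effective library size, times the mean of that size within a sex. Correlations used log2 CPM (prior count 1) and 100000 permutations. The fits were tested on simulated data. Replicate numbers only number the rats, and p-values measure the spread between them. Replicates differed by more than counting noise, with a chi-square per gene of 2.02 to 25.2 over pairs. Promoter letters came from RefSeq (GRCr8), found for all 8 genes. A count of 0 allows up to 3 counts, for counting error only.

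The genes, the lists (Prader-Willi and Angelman, Peg3 and Peg10 regions, imprinted genes elsewhere, Sm core, imprint maintenance, Magel2 partners, cell markers) and the tests were chosen with earlier results of these data known. Named are all genes of the set (fold changes of Snurf, Snrpn and Usp29 in every comparison and of the others mainly at the criterion), the 5 genes most like Snurf and Usp29, and at most 4 genes of a list, those with the smallest p in a comparison. Alternatives were other tests (edgeR likelihood ratio and exact, DESeq2 1.42.0), RLE and library size scaling, 2 filters, 1 fit of 4 groups, a replicate block, 2 thresholds, Snurf and Snrpn summed, and libraries left out. The values of 1 gene of a list are not reported here.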

Additional observations from a re-analysis of the deposited data

Results flagged for a closer look

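Over the 56 groups of 4 rats formed by the 7 genes, 4 diets and both sexes, a single rat lay far from the other 3 in 2 groups by Dixon's criterion, which chance alone meets in about 1 group in 20. Ndn in male FID replicate 2 was 1812 normalized counts against 1354 to 1397 in the other FID males. Peg3 in female FIDch replicate 4 was 10439 against 14029 to 14740.

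The choline difference of Ube3a differed between formerly iron-deficient and iron-sufficient rats by -0.62 on the log2 scale in males, as a description, and by -0.22 in females (edgeR adjusted p = 0.490). The same difference was -0.28 for Peg3 in males, also as a description. The ISch against IS difference of Peg3 was -0.32 on the log2 scale in females minus males (edgeR adjusted p = 0.199). The unadjusted edgeR p was under 0.05 for Ube3a in females and for the Peg3 difference between the sexes. Neither passed the adjustment over all genes tested by edgeR.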

How the results depend on the processing

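Counts of genes at the criterion were recomputed under each setting. With adjusted p under 0.05 in place of the criterion, 0 genes were left in male FID against IS, male ISch against IS, male FIDch against ISch and female FIDch against FID. With no fold limit there were 2 in male FID against IS, 1 in female FID against IS and 2 in female FIDch against FID. Library size alone and the keeping of all genes with a count each gave 2 in male FID against IS. In female FIDch against FID the 1 gene, Ube3a, became 0 under DESeq2, RLE, library size alone, all genes with a count, the 1 CPM filter and the fit of 4 groups. The fit of 4 groups gave 1 in female FIDch against ISch. Leaving out the 3 male libraries of another label form gave 1 in place of 3 in male ISch against IS.

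With each library left out in turn, the counts ran from 0 to 2 in male FID against IS, 1 to 1 in male FIDch against IS, 1 to 4 in male ISch against IS, 3 to 3 in male FIDch against FID, 3 to 4 in male FIDch against ISch, 0 to 1 in female FID against IS, 0 to 0 in female FIDch against IS, 0 to 1 in female ISch against IS, 0 to 2 in female FIDch against FID and 0 to 2 in female FIDch against ISch. Genes with an interaction numbered 2 to 4 in males and 0 to 1 in females. With all libraries, 15.4% of all genes had an unadjusted p under 0.05 for it in males and 9.18% in females. The male count holds the chosen gene Usp29 and is a description. Genes that differed between the sexes numbered 0 to 1, 0 to 2 and 1 to 3 in FID, FIDch and ISch against IS. The causes were not tested beyond the smaller number of libraries.

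With the replicate number as a replicate block, the count in female FIDch against FID was 0, and no other count moved by over 1.5 times. Same-numbered libraries did not deviate together (correlations of -0.142 to 0.205), so they share only a number, and in no comparison did every library correlate best with its own number.

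After the diet means were subtracted, the male r of Peg3 with Usp29 (0.563) and of Ndn with Magel2 (0.602) had adjusted permutation p of 0.036 and 0.026. The direction of no called value turned under the settings tried. Low counts limit Snurf and Snrpn in females and Snrpn in males, which rest on at most 59.0 normalized counts per library.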
